A study of Homo sapiens with 66 samples.

Results

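The 8 genes described here encode surface proteins of plasma cells that serve as markers or therapy targets in multiple myeloma, and they were chosen by symbol from the 20167 genes of the count table: SDC1, TNFRSF17, TNFRSF13B, CD38, SLAMF7, FCRL5, GPRC5D and ITGB7. Polyadenylated RNA was sequenced from AMO1, an established human myeloma cell line labelled as wild type, and from L363-CFZr, a line derived from human L363 myeloma cells with resistance to the proteasome inhibitor carfilzomib (CFZ). Each line was exposed for 6 h or 24 h to the solvent DMSO, to the prolyl-tRNA synthetase (ProRS) inhibitors NCP26 and HFG (halofuginone), or to the related compounds NCP22 and halofuginol, with 1 µM given in the labels for the ProRS compounds. The study counts NCP22 and halofuginol among its compounds against ProRS and describes their potency as lower or absent. AMO1 was also exposed to CFZ, and with 3 libraries per group this gave 12 groups of AMO1 and 10 of L363-CFZr, or 66 libraries in 22 groups. L363-CFZr is a single resistant line measured without its parental line, so the comparison of both lines is one of unrelated lines as much as of resistance.

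Plasma cells carry these proteins at their surface, and most of them are reached in patients by antibodies, antibody-drug conjugates or engineered T cells. TNFRSF17 (BCMA) and TNFRSF13B (TACI) are receptors for the survival ligands APRIL and BAFF, SDC1 (CD138) is a heparan sulfate proteoglycan, ITGB7 is an integrin chain that pairs with ITGA4 or ITGAE, SLAMF7 is a receptor of the SLAM family, CD38 is an NAD-consuming ectoenzyme, and FCRL5 and GPRC5D are an Fc receptor-like protein and an orphan receptor. ProRS loads proline onto its tRNA, and its inhibition leaves uncharged tRNA, which the kinase GCN2 senses. The measurements are of RNA and not of protein at the cell surface.

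In GENCODE annotation of GRCh38, with gene identifiers as the count table gives them, SDC1 (ENSG00000115884) lies on the minus strand at chr2:20200797-20225433, TNFRSF17 (ENSG00000048462) on the plus strand at chr16:11965210-11968068 and TNFRSF13B (ENSG00000240505) on the minus strand at chr17:16929816-16972118. CD38 (ENSG00000004468) lies on the plus strand at chr4:15778275-15853232, SLAMF7 (ENSG00000026751) on the plus strand at chr1:160739057-160754821 and FCRL5 (ENSG00000143297) on the minus strand at chr1:157513377-157552515. GPRC5D (ENSG00000111291) and ITGB7 (ENSG00000139626) lie on the minus strand of chromosome 12, at chr12:12940575-12952170 and chr12:53191323-53207282. Counts came from whole transcripts, so each value covers all exons of a gene, untranslated regions included. ITGB7 shares 36.2% of its 31-base words with transcripts of ZNF740 on the opposite strand, and TNFRSF13B shares 14.75% of its words with other genes, nearly all with ENSG00000290698 on its own strand, so counts of both genes could include reads of a neighbour.

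RefSeq start sites of GRCh38.p14 were at hand for 6 of the 8 genes. The 250 bases before the start are shown, 5′ to 3′ on the strand of the gene, for SDC1, the most abundant member in AMO1, for FCRL5, which L363-CFZr hardly expressed, for CD38, which rose in L363-CFZr and in none of the AMO1 comparisons, and for ITGB7, which NCP26 and HFG moved in opposite directions in AMO1 at 24 h. Capitals mark matches on either strand to 8 short motifs that were searched: the E-boxes CAGCTG and CAGGTG, the CCAAT box CCAAT, the GC box GGGCGG, the CRE core TGACGT, the IRF element (GAAA, any 2 bases, GAAA), the heat shock element GAANNTTC and the C/EBP-ATF element TGATGNAAT.
SDC1, chr2:20225476-20225725, minus strand: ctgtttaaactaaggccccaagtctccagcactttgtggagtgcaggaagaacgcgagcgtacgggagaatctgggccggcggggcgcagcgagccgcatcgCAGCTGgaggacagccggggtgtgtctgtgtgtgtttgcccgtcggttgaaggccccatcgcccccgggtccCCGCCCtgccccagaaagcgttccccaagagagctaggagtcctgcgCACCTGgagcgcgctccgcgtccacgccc
FCRL5, chr1:157552516-157552765, minus strand: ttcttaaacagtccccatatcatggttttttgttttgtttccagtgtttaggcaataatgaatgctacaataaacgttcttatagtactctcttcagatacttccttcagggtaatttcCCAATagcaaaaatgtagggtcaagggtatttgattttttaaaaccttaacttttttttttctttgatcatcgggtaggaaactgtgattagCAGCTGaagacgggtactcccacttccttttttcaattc
CD38, chr4:15778078-15778327, plus strand: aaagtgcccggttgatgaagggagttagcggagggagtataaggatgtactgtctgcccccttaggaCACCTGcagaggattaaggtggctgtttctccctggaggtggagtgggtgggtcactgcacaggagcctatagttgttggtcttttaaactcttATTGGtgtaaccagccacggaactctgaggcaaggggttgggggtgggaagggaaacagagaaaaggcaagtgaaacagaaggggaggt
ITGB7, chr12:53207252-53207501, minus strand: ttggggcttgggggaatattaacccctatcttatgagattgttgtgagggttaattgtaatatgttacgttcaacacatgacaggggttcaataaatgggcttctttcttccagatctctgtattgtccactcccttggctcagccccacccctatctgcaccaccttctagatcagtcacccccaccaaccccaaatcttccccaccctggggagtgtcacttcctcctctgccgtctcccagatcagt
SDC1 held a CAGCTG E-box at base 103, a GC box at base 175 and a CAGGTG E-box at base 222, counted from 1 at the first base shown. FCRL5 held a CCAAT box at base 120 and a CAGCTG E-box at base 212, CD38 held a CAGGTG E-box at base 68 and a CCAAT box at base 162, and ITGB7 held none of the 8 motifs. Of 35116 RefSeq promoter windows of 300 bases, 17.9% held CAGCTG, 20.6% held CAGGTG, 34.6% held a CCAAT box and 45% held a GC box. The CRE core was present in 7.98%, the heat shock element in 6.77%, the IRF element in 3.57% and the C/EBP-ATF element in 0.991% of these windows. The matches are letters in the reference sequence, and binding of a factor was not measured.

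Library totals ran from 1666325 to 5761682 counts in AMO1 and from 2487872 to 6596543 in L363-CFZr. All 12 plasma cell markers checked were at a median of at least 1 CPM (the count scaled to a common library size) in both lines, and 0 of 6 myeloid and 0 of 4 erythroid markers were. The T and NK cell list had 1 of 8 (CD3E, AMO1 only), the B cell list 2 of 6 in either line (BACH2 and CIITA) and the stromal and epithelial list 2 of 6 in AMO1 and 1 of 6 in L363-CFZr. 2 libraries stood apart from their own groups, with a mean correlation of 0.974 for L363-CFZr DMSO 24 h replicate 2 and of 0.975 for AMO1 CFZ 24 h replicate 2, and results resting on them are given with and without them. The sample numbers in the column names fall into 3 sets whose meaning is not stated. The AMO1 24 h treated libraries, CFZ replicate 1 excepted, belong to another set than AMO1 24 h DMSO, and HFG and halofuginol at 6 h in L363-CFZr belong to another set than their DMSO libraries, so the set and the treatment cannot be told apart there. For NCP22 at 24 h in AMO1, which crosses the same sets, edgeR called 0 of 10781 genes, DESeq2 called 3, and 638 had an unadjusted p under 0.05 in edgeR. For halofuginol, also across sets, edgeR called 20 of 10943 genes in AMO1 at 24 h and 2718 of 10519 (25.8%) in L363-CFZr at 6 h. In the latter the log2 changes of genes correlated with their GC content at r = −0.717. The same r was −0.02 for halofuginol in AMO1 at 24 h and 0.02 in L363-CFZr at 24 h. Within 1 set at 6 h in AMO1 it was −0.51 for NCP22, −0.47 for halofuginol and −0.37 for NCP26. HFG stood at −0.32 and CFZ at −0.12 there, and NCP26 in L363-CFZr at 6 h, also within 1 set, at −0.37. Across sets in L363-CFZr at 6 h it was −0.57 for HFG and −0.01 for NCP22, of which only replicate 3 crosses sets. SDC1, TNFRSF13B and ITGB7, at 59.1% to 59.4% GC, are the members of highest GC content. Halofuginol in L363-CFZr at 24 h, in the same set as its DMSO libraries, had 0 of 10531. The part of the set in these counts was not tested. The study's methods give biological triplicates as the general rule, while the labels do not say whether the 3 libraries of a group came from separate cultures, so p-values measure the spread between these libraries. Fewer cells of a type and less RNA per cell cannot be told apart in such libraries.

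Levels were first compared between genes in DMSO, as CPM per kilobase of the canonical transcript. In AMO1 at 6 h SDC1 was far above the others at 1068, followed by ITGB7 at 180 ± 12.2 and TNFRSF17 at 179 ± 7.5 (SD, n = 3), which did not differ beyond their spread. TNFRSF13B at 76.1, SLAMF7 at 58.5, GPRC5D at 14.3, CD38 at 8.82 and FCRL5 at 3.57 followed, and the order was the same at 24 h. In L363-CFZr at 6 h ITGB7 led at 348 ± 14.6, with TNFRSF17 at 333 ± 20.2 and SDC1 at 305 close behind, and ITGB7 and TNFRSF17 did not differ beyond their spread. TNFRSF13B at 154, SLAMF7 at 53.6, GPRC5D at 15.2 and CD38 at 3.44 followed in that line, and FCRL5 stood at 0.0422. SDC1 thus held the first place in AMO1 and a later one in L363-CFZr.

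**Figure D1:**
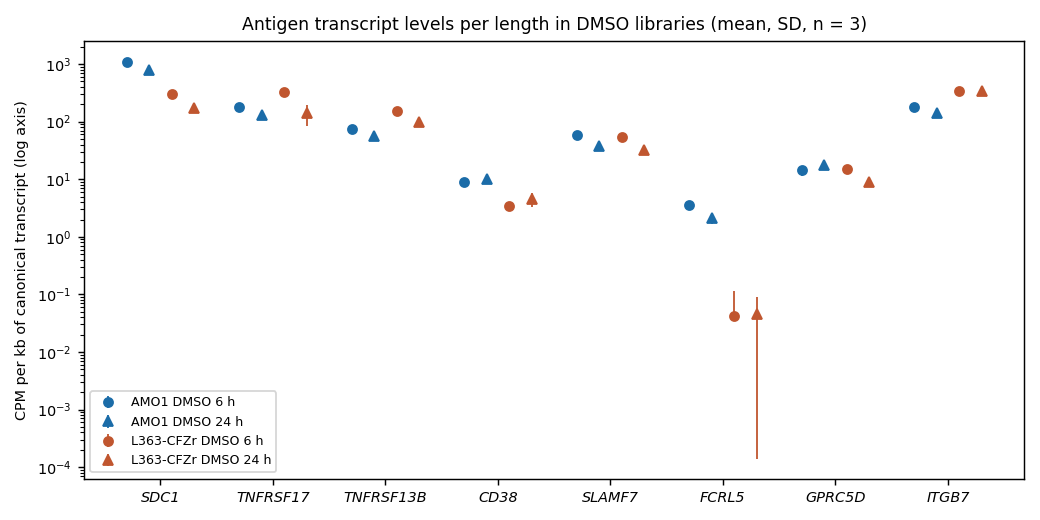
CPM per kilobase of the canonical transcript on a log axis for the 8 genes in DMSO libraries of both lines at 6 h and 24 h, as mean with SD over 3 libraries (the lower whisker is left out where the SD reaches the mean). SDC1 is at 1068 in AMO1 and at 305 in L363-CFZr at 6 h, and FCRL5 is at 3.57 against 0.0422.

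FCRL5 was the only member not expressed in a line, by a mean under 1 CPM in all 10 groups of L363-CFZr. The 30 L363-CFZr libraries held 19 FCRL5 counts in all, with 18 libraries at 0 and none above 3, whereas the 36 AMO1 libraries held 1775. A count of 0 in 1 library allows up to 3 counts, so a low level in L363-CFZr was not detectable at this depth in most libraries. In DMSO at 6 h there were 168 counts in AMO1 against 2 in L363-CFZr, a ratio of 102.6 after scaling for library size (95% exact interval 28 to 854, counting error only), and at 24 h there were 142 against 3, a ratio of 41.9 (14.1 to 206). The other 7 genes were expressed in every group of both lines.

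Between lines in DMSO, 6 of 8 genes differed at 6 h and 6 of 8 at 24 h in the quasi-likelihood test of edgeR, with p-values adjusted by Benjamini-Hochberg over all genes tested (a gene is called at an adjusted p under 0.05). Of all genes tested, 60.2% were called at 6 h and 39.9% at 24 h, so differing between these lines was common. FCRL5 is counted among the called genes at both times and in the 8 of 8 below. It passed the filter on low counts through AMO1 alone, so its call adds nothing to the counts given above. SDC1 was lower in L363-CFZr than in AMO1, with a log2 fold change of −1.83 at 6 h (adjusted p = 3.36e-16) and −2.19 at 24 h. CD38 was lower as well, at −1.39 and −1.18. ITGB7 was higher in L363-CFZr at 0.93 and 1.26, and TNFRSF13B at 0.99 and 0.81. TNFRSF17 was higher at 6 h (0.88) and had a difference of 0.06 at 24 h (adjusted p = 0.869), where L363-CFZr DMSO replicate 2 read 71.2 CPM beside 165 and 135. Without that library the 24 h difference was 0.33 (adjusted p = 0.000457), and 8 of 8 genes and 65.0% of all genes were called. SLAMF7 stood at −0.15 and −0.24, not called, and GPRC5D at 0.08, not called, and −0.99. Line and sample-number set cannot be told apart in these comparisons.

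Most members were lower at 24 h than at 6 h in DMSO alone. In AMO1, 6 of 8 genes were lower at 24 h than at 6 h (46.5% of all genes called, 23.4% lower), from −0.36 for ITGB7 to −0.70 for FCRL5, and CD38 (0.21) and GPRC5D (0.31) were not called. In L363-CFZr 5 of 7 genes tested were lower (14.8% of all genes called, 5.81% lower), from −0.66 for TNFRSF13B to −1.25 for TNFRSF17. Without L363-CFZr DMSO 24 h replicate 2 the same 5 genes were called, TNFRSF17 stood at −0.98 and 41.1% of all genes were called, but leaving out any 1 of the L363-CFZr 6 h DMSO libraries left 0 called. Shares of all genes in those last refits are not given, so the 0 cannot be read as particular to these members. With any 1 library left out SDC1 stayed between −0.83 and −0.75 and SLAMF7 between −0.78 and −0.71. TNFRSF13B ranged from −0.73 to −0.62, GPRC5D from −0.83 to −0.64 and TNFRSF17 from −1.51 to −0.98. The AMO1 DMSO libraries of both times belong to 1 set and those of L363-CFZr to different sets. Time also cannot be told apart from handling, since cells harvested at 6 h were stored frozen for a night and those of 24 h stayed on ice until extraction.

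Against DMSO of the same line and time, 18 comparisons gave 136 tests of members, of which 42 were called, 14 higher and 28 lower. The shares of all genes given below are not split into higher and lower. The lean to lower therefore cannot be read as particular to these genes. The comparisons of a line and time share the same 3 DMSO libraries. In AMO1 at 6 h NCP26 changed 6 of 8 members (37.3% of 10666 genes called), HFG 4 (54.3%), CFZ 4 (26.9%), NCP22 1 (13.5%) and halofuginol 0 (3.62%). For halofuginol 2 members had an unadjusted p under 0.05, and DESeq2 called 2. Of all 10593 genes tested 2044 had an unadjusted p under 0.05, and DESeq2 called 280. At 24 h NCP26 changed 5 of 8 (60.7%), HFG 5 (59.0%) and CFZ 6 (27%), while NCP22 had 0 (0.0%, with 0 members at an unadjusted p under 0.05 and 0 by DESeq2) and halofuginol 0 (0.183%, with 3 and 0). Of all genes 638 and 1129 had an unadjusted p under 0.05 with NCP22 and halofuginol, and DESeq2 called 3 and 65. Without AMO1 CFZ 24 h replicate 2, CFZ changed 7 of 8 members and 48.2% of all genes.

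In L363-CFZr at 6 h NCP26 changed 4 of 7 members tested (18.8%) and HFG 5 (54.5%), with NCP22 at 0 (0.0%, 2 members at an unadjusted p under 0.05, 0 by DESeq2) and halofuginol at 0 (25.8%, 1 and 0). Of all genes 666 and 4082 had an unadjusted p under 0.05 with NCP22 and halofuginol, and DESeq2 called 1 and 1665. At 24 h NCP26 changed 2 of 7 (7.09%) and HFG 0 (1.17%, 3 at an unadjusted p under 0.05 and 0 by DESeq2), and NCP22 and halofuginol had 0 each (0.0%, with 0 and 0). Of all genes 1735, 213 and 410 had an unadjusted p under 0.05 with HFG, NCP22 and halofuginol, and DESeq2 called 319, 0 and 0. Without L363-CFZr DMSO 24 h replicate 2 NCP26 changed 3 of 7 (28.6%) and HFG 3 of 7 (19.5%), and NCP22 and halofuginol still had 0. Leaving out any 1 of the other 5 libraries left 0 members called for NCP26 at 24 h, and at 6 h the NCP26 count fell to 2 without DMSO replicate 1, DMSO replicate 3 or NCP26 replicate 1. Shares of all genes in these refits are not given, so the falls cannot be read as particular to the members. For NCP26 at 24 h ITGB7 stayed between −0.83 and −0.74 and TNFRSF13B between −0.71 and −0.60 with any 1 library left out. The share of members called lay above that of all genes in some comparisons and near or below it in others, such as HFG in AMO1.

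**Figure D2:**
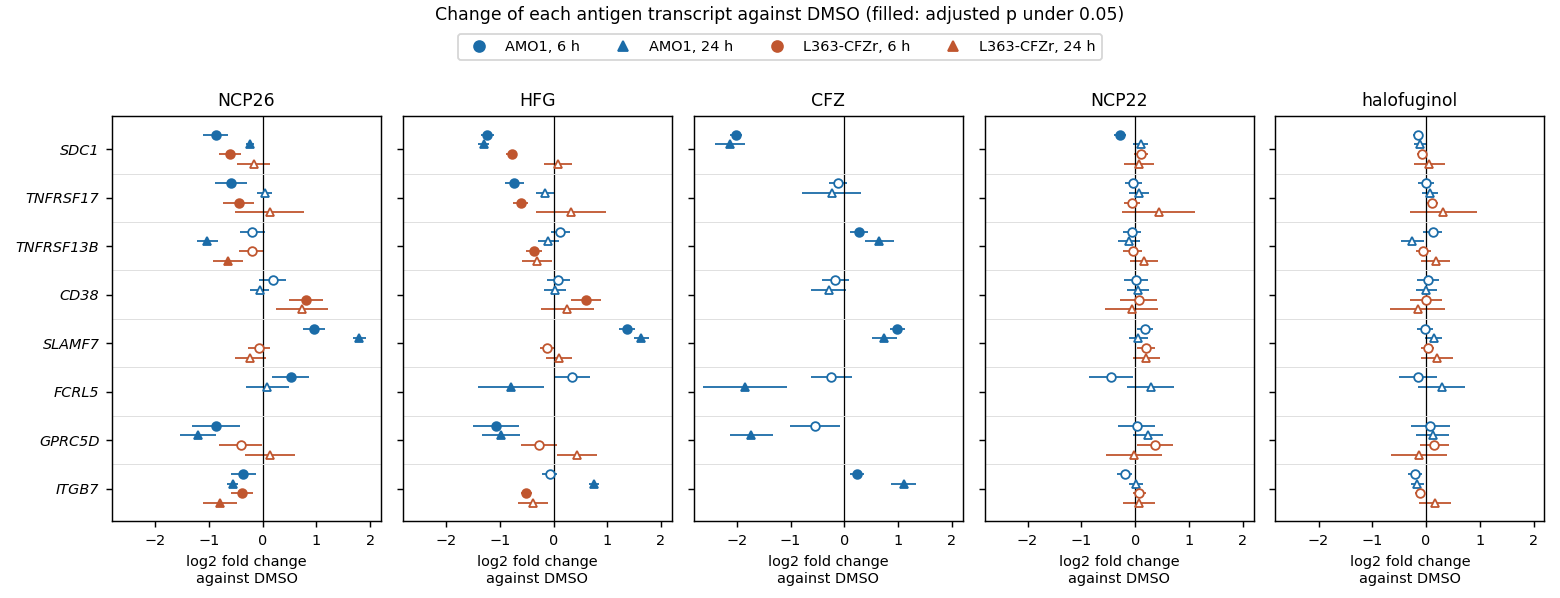
Log2 fold change against DMSO of the same line and time for each member, with 95% confidence intervals, filled where called and open where not. SLAMF7 lies between 0.74 and 1.79 for NCP26, HFG and CFZ in AMO1 and between −0.23 and 0.10 for NCP26 and HFG in L363-CFZr.

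SLAMF7, the target of elotuzumab, rose in all 6 AMO1 comparisons with NCP26, HFG and CFZ. At 6 h the DMSO libraries read 159, 160 and 156 CPM, NCP26 292, 309 and 315, HFG 412, 392 and 394, and CFZ 327, 302 and 313. All treated libraries were above all DMSO libraries, with log2 fold changes of 0.96, 1.37 and 0.98 (adjusted p = 1.5e-05, 3.95e-10 and 2.66e-10). By 24 h DMSO libraries were at 97.1, 99.3 and 111 CPM and NCP26 at 346, 374 and 357, a change of 1.79 (adjusted p = 1.02e-21). HFG read 321, 310 and 329 (1.64) and CFZ 171, 167 and 170 (0.74). In L363-CFZr SLAMF7 had nearly the same DMSO level at 6 h, 145, 149 and 142 CPM, yet NCP26 gave 139, 139 and 130 and HFG 132, 127 and 132, changes of −0.07 and −0.11 that were not called. At 24 h they were −0.23 and 0.10, also not called.

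SDC1, the marker by which plasma cells are commonly purified, was lower in 9 of its 18 comparisons and higher in none. In AMO1 at 6 h it read 3562, 3495 and 3088 CPM in DMSO, 1663, 1820 and 2003 with NCP26, 1302, 1433 and 1479 with HFG and 839, 836 and 838 with CFZ. The groups did not overlap, and the changes were −0.88 (95% interval −1.10 to −0.65), −1.23 (−1.36 to −1.10) and −2.02 (−2.13 to −1.90). NCP22 read 2767, 2855 and 2636, a smaller fall of −0.28 (adjusted p = 0.00281), which was −0.12 and not called with an offset for the GC content of each gene (adjusted p = 0.139). At 24 h DMSO read 2441, 2513 and 2704 CPM. NCP26 read 2175, 2135 and 2240 (−0.23), HFG 1106, 1029 and 982 (−1.30) and CFZ 570, 587 and 579 (−2.12), so that SDC1 with NCP26 was again close to DMSO while HFG and CFZ libraries were far below it. The call for NCP26 at 24 h was lost with the GC offset (−0.07, adjusted p = 0.07) and with a term for the sample-number set (−0.28, adjusted p = 0.108), where the value itself did not shrink. Here and below that term rests on the groups that span sets, AMO1 CFZ 24 h and L363-CFZr NCP22 6 h. Each has 2 libraries in 1 set and 1 in another, and the former includes a library that stood apart. A call lost with the term thus cannot tell an effect of the set from an imprecise estimate. In L363-CFZr at 6 h DMSO read 949, 972 and 976 CPM, NCP26 626, 642 and 600 (−0.61) and HFG 544, 543 and 560 (−0.78). At 24 h DMSO read 584, 552 and 533, NCP26 519, 458 and 498 (−0.17, adjusted p = 0.505) and HFG 578, 594 and 601 (0.09, adjusted p = 0.689).

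TNFRSF17, the receptor BCMA, was lower with NCP26 and HFG at 6 h in AMO1. In L363-CFZr its NCP26 call at 6 h depended on the fit, and its HFG call on the set term alone. In AMO1 it read 152, 162 and 164 CPM in DMSO, 132, 95 and 88.0 with NCP26 (−0.60, adjusted p = 0.00482) and 98.5, 97.1 and 86.9 with HFG (−0.73, adjusted p = 2.41e-06). In L363-CFZr it read 288, 285 and 317 in DMSO, 195, 261 and 187 with NCP26 (−0.45, adjusted p = 0.0336) and 175, 202 and 195 with HFG (−0.61). In L363-CFZr the NCP26 call was lost without any 1 of 5 of its 6 libraries (adjusted p from 0.0748 to 0.141), NCP26 replicate 2 being the exception, and with a replicate block (−0.46, adjusted p = 0.0796). The HFG call in that line was lost with the set term (−0.49, adjusted p = 0.283). Within 1 set at 6 h there, TNFRSF17 in HFG against halofuginol ranged from −0.77 to −0.66 with any 1 library left out (edgeR, adjusted p at most 5.93e-10). At 24 h none of its 8 NCP26, HFG, NCP22 and halofuginol comparisons was called, with DMSO at 121, 121 and 114 CPM in AMO1 and at 165, 71.2 and 135 in L363-CFZr. CFZ at 24 h read 118, 57.7 and 123, and its change of −0.23 (adjusted p = 0.5) was 0.04 without the replicate that stood apart.

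TNFRSF13B, the sister receptor TACI, did not follow TNFRSF17. CFZ raised it in AMO1, from 108, 112 and 97.7 CPM to 132, 124 and 130 at 6 h (0.27, lost with DESeq2 at an adjusted p of 0.0502 and without CFZ replicate 1 or 3) and from 79.5, 84.0 and 69.7 to 128, 108 and 125 at 24 h (0.65). NCP26 at 24 h read 38.1, 40.7 and 35.2, below all DMSO libraries (−1.03, adjusted p = 1.29e-10), whereas HFG read 70.8, 66.1 and 79.5 (−0.10, not called). In L363-CFZr HFG was lower at 6 h, 155, 160 and 171 CPM against 224, 227 and 193 (−0.37), and NCP26 at 24 h, 80.3, 93.7 and 84.0 against 136, 128 and 143 (−0.65, adjusted p = 0.0224). The HFG value was −0.04 with the GC offset (adjusted p = 0.751) and −0.28 with the set term (adjusted p = 0.214), neither of them called. Within 1 set at 6 h, HFG against halofuginol ranged from −0.35 to −0.27 in that line with any 1 library left out (edgeR, adjusted p at most 0.000298). The NCP26 call was lost with a replicate block (adjusted p = 0.112), with the GC offset (−0.53, adjusted p = 0.0536) and without any 1 library other than DMSO replicate 2. Without L363-CFZr DMSO 24 h replicate 2 the latter was −0.68, and HFG at 24 h (101, 122 and 106 CPM) was called as well at −0.35.

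CD38, the target of daratumumab, had AMO1 group means between 43.9 and 59.1 CPM, and none of its 10 AMO1 comparisons with DMSO was called. Without AMO1 CFZ 24 h replicate 2, CFZ at 24 h was called at −0.43 (adjusted p = 0.00291). In L363-CFZr, where it started lower, it rose at 6 h from 18.1, 22.1 and 17.8 CPM to 34.8, 32.9 and 31.6 with NCP26 (0.81, adjusted p = 0.00374) and to 26.6, 28.7 and 30.1 with HFG (0.61, adjusted p = 0.000559), the latter not called with the set term (0.53, adjusted p = 0.151). Within 1 set at 6 h, HFG against halofuginol ranged from 0.54 to 0.69 in that line with any 1 library left out (edgeR, adjusted p at most 0.00226). At 24 h DMSO read 19.2, 33.2 and 23.7, with the highest value in the library that stood apart, and NCP26 read 44.9, 38.3 and 41.3, all above DMSO (0.74, adjusted p = 0.0783). Without that library the change was 0.95 (adjusted p = 0.000409).

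GPRC5D, the target of talquetamab, was lower in AMO1 with NCP26 and HFG at both times and with CFZ at 24 h. At 6 h DMSO read 22.8, 19.6 and 15.2 CPM, NCP26 9.37, 10.8 and 11 (−0.87) and HFG 11.1, 8.53 and 7.97 (−1.07). After 24 h DMSO read 25.6, 22.9 and 23.2, NCP26 10.6, 9.44 and 10.9 (−1.20), HFG 9.55, 12 and 13.6 (−0.98) and CFZ 7.70, 7.22 and 6.21 (−1.73). With the set term the 24 h changes were −1.03 for NCP26 and −0.81 for HFG and were not called (adjusted p = 0.092 and 0.179). Within 1 set at 24 h, NCP26 against NCP22 ranged from −1.48 to −1.36 with any 1 library left out (edgeR, adjusted p at most 0.000127). HFG against halofuginol ranged from −1.26 to −0.95 (adjusted p at most 0.00291). The treated groups listed did not overlap with DMSO, at levels where 1 library held few counts. In L363-CFZr none of its 8 comparisons was called. There DMSO read 18.7, 18.7 and 23.8 CPM at 6 h and 11.6, 11.9 and 12.5 at 24 h, and HFG at 24 h read 15.2, 17.5 and 16.1 (0.44, adjusted p = 0.246).

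FCRL5 was tested in AMO1 alone, in 10 comparisons. NCP26 at 6 h read 26.6, 28.1 and 27.6 CPM against 23.1, 16.1 and 18.4 in DMSO (0.52, adjusted p = 0.0227), and HFG read 23.4, 24.3 and 23.9 (0.35, adjusted p = 0.0636). The NCP26 call was lost with the DESeq2 Wald test (adjusted p = 0.0676) and without DMSO replicate 2 or 3 or NCP26 replicate 2 or 3 (0.40 to 0.52, adjusted p from 0.0545 to 0.11). Later, at 24 h, DMSO read 9.16, 10.9 and 14.2. HFG read 11.2, 5.79 and 4.63 (−0.79, adjusted p = 0.0267), with groups that overlapped, and CFZ read 1.75, 4.01 and 3.88 (−1.84, adjusted p = 0.0054), from only 5, 10 and 10 counts. The HFG call was lost with DESeq2 (adjusted p = 0.087) and without DMSO replicate 3 or HFG replicate 2 or 3 (adjusted p from 0.0952 to 0.186).

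ITGB7 moved in both directions. In AMO1 at 6 h DMSO read 534, 514 and 467 CPM, NCP26 360, 379 and 434 (−0.36), HFG 473, 484 and 449 (−0.07, not called) and CFZ 594, 591 and 594 (0.23). The NCP26 value at 6 h was −0.12 with the GC offset (adjusted p = 0.345), and its call was also lost without DMSO replicate 1 or 2 or NCP26 replicate 2 (adjusted p from 0.0624 to 0.0885). At 24 h DMSO read 393, 383 and 402, NCP26 256, 258 and 289 (−0.56), HFG 656, 645 and 682 (0.75) and CFZ 847, 818 and 823 (1.10), with no overlap of any of these with DMSO. In L363-CFZr at 6 h it went from 999, 930 and 1002 CPM to 750, 742 and 715 with NCP26 (−0.39) and to 657, 657 and 702 with HFG (−0.51). There the NCP26 value was −0.19 with the GC offset (adjusted p = 0.178), and its call was lost with a replicate block (adjusted p = 0.0869) and without DMSO replicate 1 or 3 or NCP26 replicate 1 (adjusted p from 0.0663 to 0.103). At 24 h NCP26 read 551, 528 and 531 against 1009, 909 and 901 (−0.80, adjusted p = 0.0149, and −0.82 without L363-CFZr DMSO replicate 2), and HFG read 736, 707 and 723 (−0.38, adjusted p = 0.186, and −0.40 and called without it). The NCP26 call at 24 h was lost with a replicate block (adjusted p = 0.101) and without any 1 library other than DMSO replicate 2. ZNF740, which shares sequence with ITGB7 and was looked at after these values were seen, was higher with NCP26 at 24 h in AMO1, 92.2 against 64.6 CPM (0.51, adjusted p = 2.73e-06). It stood at 0.06 for HFG and −0.42 for CFZ at that time (adjusted p = 0.65 and 0.0515). The part of shared reads in the ITGB7 values was not tested.

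**Figure D3:**
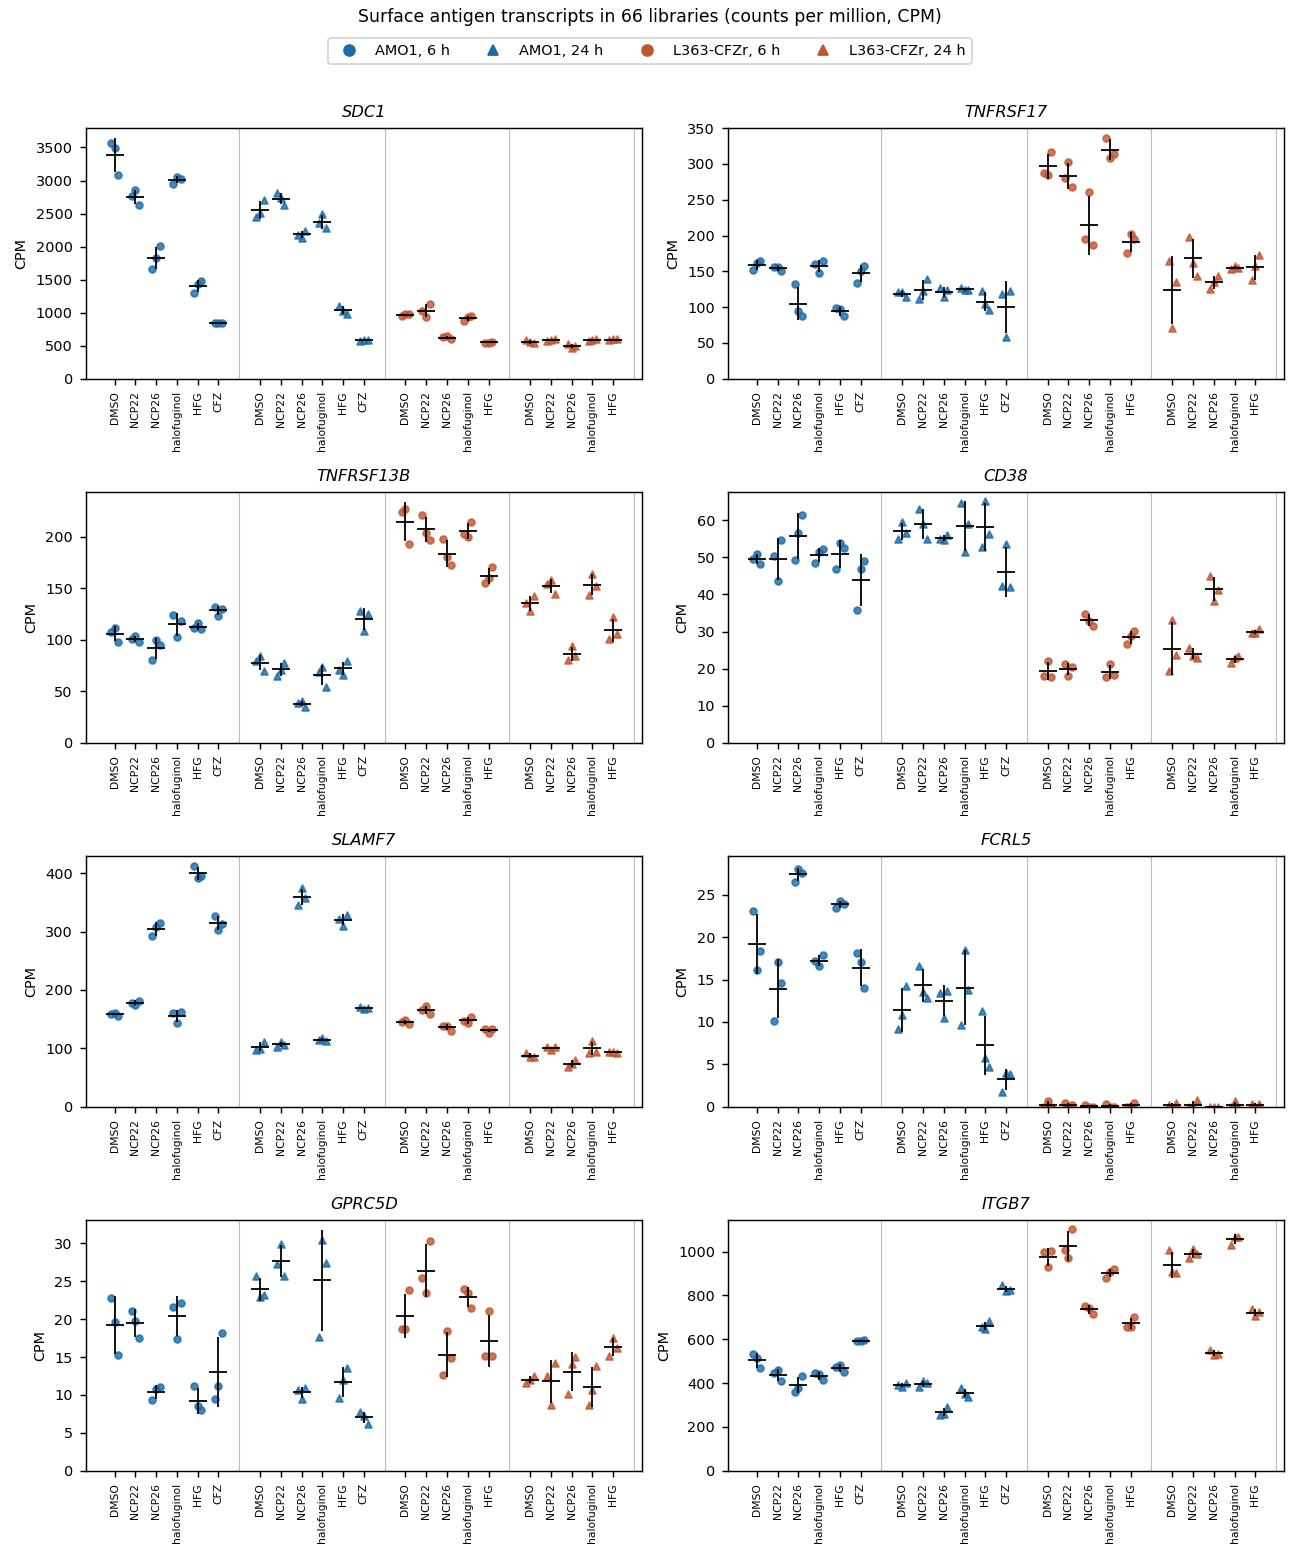
CPM of each member in each of the 66 libraries (points) on linear axes from 0, grouped by line, time and treatment, with bars for the mean and SD of 3 libraries. SLAMF7 in AMO1 lies between 292 and 412 with NCP26 or HFG at 6 h against 156 to 160 with DMSO, and FCRL5 in L363-CFZr is at 0 in 18 of 30 libraries.

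The related compounds were compared directly at matched time and concentration, in 8 comparisons with 60 member tests, adjusted over all genes of each comparison, of which 42 were called. NCP26 was developed from NCP22, on a pyrazinamide scaffold, and carries a piperidinyl ring where NCP22 has a cyclohexyl group, and halofuginol is an analogue of HFG among the febrifugine derivatives. NCP26 differed from NCP22 in 5 of 8 members in AMO1 at 6 h (24.7% of all genes called) and 5 of 8 at 24 h (52.0%), and in 5 of 7 (20.4%) and 6 of 7 (34.1%) in L363-CFZr. With any 1 library left out, 4 to 5 members were called at 24 h in L363-CFZr, losing SDC1, TNFRSF17 or both. All NCP26 and NCP22 libraries of the same time and line belong to 1 sample-number set, except in L363-CFZr at 6 h. There NCP22 replicate 3 belongs to another set than the other libraries of NCP26 and NCP22, and without it 2 of 7 members were called. Shares of all genes with a library left out are not given, so these falls cannot be read as particular to the members. SLAMF7 was higher with NCP26 than with NCP22 by 0.81 (95% interval 0.63 to 0.98) at 6 h and by 1.76 (1.61 to 1.91) at 24 h in AMO1, whereas in L363-CFZr it differed by −0.28 (−0.50 to −0.06, not called) and −0.45 (−0.64 to −0.26). CD38 did not pass in AMO1, at 0.20 (−0.06 to 0.46) and −0.09 (−0.29 to 0.11), and was higher with NCP26 in L363-CFZr, at 0.73 (0.43 to 1.04) and 0.79 (0.53 to 1.05). FCRL5 in AMO1 at 6 h read 26.6, 28.1 and 27.6 CPM with NCP26 against 10.1, 17 and 14.6 with NCP22 (1.00, 0.61 to 1.39).

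HFG differed from halofuginol in 6 of 8 members in AMO1 at 6 h (51.7%) and 5 of 8 at 24 h (56.6%), and in 7 of 7 (47.3%) and 3 of 7 (21.9%) in L363-CFZr, always within 1 sample-number set. In L363-CFZr DESeq2 called 5 members at 6 h, without SLAMF7 (−0.14, adjusted p = 0.125) and GPRC5D (−0.42, adjusted p = 0.0708). At 24 h in L363-CFZr it called 2, without CD38 (0.41, adjusted p = 0.167). Of all genes it called 3635 at 6 h and 1408 at 24 h in that line. The calls of SLAMF7, GPRC5D and CD38 were also lost with all groups of the line in 1 fit and with some single libraries left out. SDC1 was lower with HFG by −1.08 (−1.17 to −0.99) and −1.18 (−1.30 to −1.05) in AMO1 and by −0.70 (−0.78 to −0.63) at 6 h in L363-CFZr, with a difference of 0.02 (−0.08 to 0.12) at 24 h in that line. ITGB7 was higher with HFG by 0.92 (0.79 to 1.05) in AMO1 at 24 h and lower by −0.55 (−0.64 to −0.46) in L363-CFZr at 24 h. TNFRSF13B did not pass in AMO1, at 0.00 (−0.16 to 0.16) and 0.17 (−0.07 to 0.41).

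NCP22 and halofuginol themselves gave few calls against DMSO. Of their 60 member tests against DMSO 1 was called, SDC1 with NCP22 in AMO1 at 6 h. Of all genes, NCP22 and halofuginol called 13.5% and 3.62% in AMO1 and 0.0% and 25.8% in L363-CFZr at 6 h. At 24 h the shares were 0.0% and 0.183% in AMO1 and 0.0% for both in L363-CFZr, so few genes of any kind were called. In AMO1 at 6 h 4 members had an unadjusted p under 0.05 with NCP22, and DESeq2 called 2 for either compound. Of all genes 3112 had an unadjusted p under 0.05 with NCP22, and DESeq2 called 898 for NCP22 and 280 for halofuginol. The intervals were narrow for abundant genes, such as 0.10 (−0.04 to 0.24) for SDC1 with NCP22 in AMO1 at 24 h. A wide one was that of TNFRSF17 with NCP22 in L363-CFZr at 24 h, at 0.44 (−0.24 to 1.12). Without L363-CFZr DMSO 24 h replicate 2, which stood apart, that value was 0.16 (SE 0.12, not called).

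**Figure D4:**
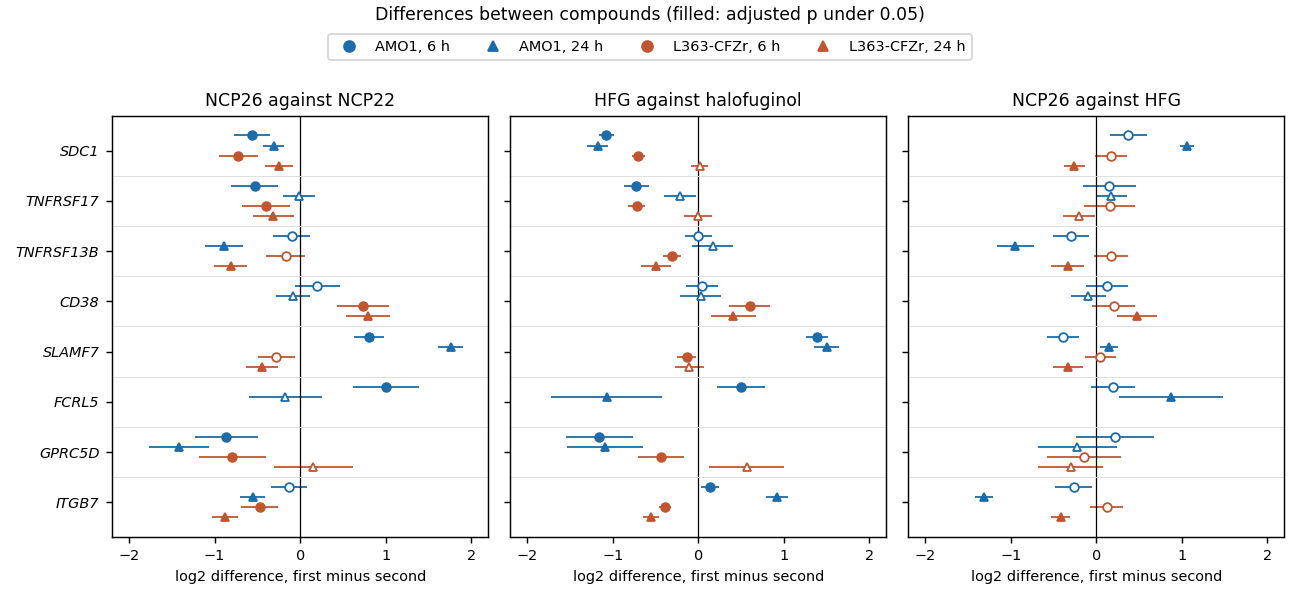
Log2 differences with 95% confidence intervals between NCP26 and NCP22, HFG and halofuginol, and NCP26 and HFG for each member, by line and time, filled where called and open where not. NCP26 and HFG differ most at 24 h in AMO1, with SDC1 at 1.06 and ITGB7 at −1.32.

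NCP26 and HFG, which bind different sites of the enzyme, were then compared in 4 comparisons. At 6 h 0 of 8 members differed in AMO1 (0.26% of all genes called, 4 members at an unadjusted p under 0.05 and 2 by DESeq2) and 0 of 7 in L363-CFZr (0.0%, with 0 and 0), where the compounds belong to different sets. Of all genes 1416 of 10749 in AMO1 and 1188 of 10688 in L363-CFZr had an unadjusted p under 0.05. DESeq2 called 70 and 0 of all genes. The intervals at 6 h still allowed differences, such as 0.38 (0.16 to 0.59) for SDC1 and −0.39 (−0.58 to −0.21) for SLAMF7 in AMO1. At 24 h 5 of 8 members differed in AMO1 (44.9%) and 5 of 7 in L363-CFZr (12.9%), the latter 1 without HFG replicate 2, 2 without HFG replicate 3 and 3 without NCP26 replicate 2. Shares of all genes in these refits are not given, so the falls cannot be read as particular to the members. In AMO1 SDC1 was higher with NCP26 than with HFG by 1.06 (0.97 to 1.14), ITGB7 lower by −1.32 (−1.42 to −1.21) and TNFRSF13B lower by −0.95 (−1.16 to −0.73). In L363-CFZr CD38 was higher with NCP26 by 0.47 (0.24 to 0.71), and ITGB7 at −0.42, TNFRSF13B at −0.33, SLAMF7 at −0.33 and SDC1 at −0.26 were lower.

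Whether an effect differed between lines was tested as an interaction. The NCP26 effect differed in 1 of 8 members at 6 h (2.71% of all genes called) and 2 of 8 at 24 h (5.41%), and the HFG effect in 6 of 8 at 6 h (20.7%) and 4 of 8 at 24 h (16.9%). SLAMF7 was among them in all 4, with the effect in L363-CFZr below that in AMO1 by −1.05, −2.06, −1.48 and −1.55. Without L363-CFZr DMSO 24 h replicate 2, the NCP26 effect at 24 h differed in 4 members, now with CD38 (0.97, adjusted p = 0.000143) and ITGB7 (−0.30). The HFG effect at 24 h then differed in 5. The share of all genes called rose as well, to 21.1% for NCP26 and 33.4% for HFG. With the set term the HFG effect at 6 h differed in 2 members, losing SDC1, TNFRSF13B, CD38 and GPRC5D. The share of all genes in that fit is not given, so the fall cannot be read as particular to the members. FCRL5 was at the detection floor in L363-CFZr, so its interaction values cannot be read.

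Effects also differed with time. In AMO1 the NCP26 effect at 24 h differed from that at 6 h in 4 members (17.5% of all genes called), with SDC1 (0.64), TNFRSF17 (0.63) and SLAMF7 (0.83) higher and TNFRSF13B (−0.85) lower. The HFG effect differed in 4 (39.6%) and the CFZ effect in 3 (19.6%), with ITGB7 at 0.85 and 0.86 in these. Without AMO1 CFZ 24 h replicate 2 the CFZ effect differed in 5 (30.6%), now with TNFRSF13B (0.43) and SLAMF7 (−0.26). In L363-CFZr the NCP26 effect differed in 0 of 7 (0.691%, 3 members at an unadjusted p under 0.05 and 2 by DESeq2) and the HFG effect in 1 of 7 (12.3%), SDC1 at 0.89. For that NCP26 effect 1314 of all genes had an unadjusted p under 0.05, and DESeq2 called 192. Without L363-CFZr DMSO 24 h replicate 2 the HFG effect differed in 3 of 7 (32.9%), now with TNFRSF17 (0.70) and GPRC5D (0.75). The NCP26 effect then still differed in 0 of 7 (3.64%). In AMO1 the 6 h effects compare libraries of 1 sample-number set, and the 24 h effects cross sets, CFZ replicate 1 excepted. For these effects against DMSO the set thus cannot be told apart from time. In AMO1 NCP26 and NCP22 share 1 set at each time, as do HFG and halofuginol. With any 1 library left out, SLAMF7 differed between NCP26 and NCP22 by 0.78 to 0.84 at 6 h. At 24 h it differed by 1.71 to 1.79. TNFRSF13B differed by −0.17 to −0.02 and −0.96 to −0.84. SDC1 differed by −0.63 to −0.50 and −0.35 to −0.29, and TNFRSF17 by −0.72 to −0.42 and −0.09 to 0.04. Whether these differences changed with time was not tested.

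Genes around the members were read from lists, whose counts here and below are to be read beside the shares of all genes called. In AMO1 at 6 h these were 37.3% with NCP26, 54.3% with HFG and 26.9% with CFZ. They were 60.7% with NCP26 and 59.0% with HFG in AMO1 at 24 h, and 18.8% and 54.5% in L363-CFZr at 6 h. Of 10 plasma cell transcription factors, AMO1 with NCP26 had 1 higher and 6 lower of 10 tested at 6 h (median −0.44, all genes −0.01) and 1 higher and 8 lower of 9 at 24 h (−0.57, all genes 0.01). HFG had 2 and 6 of 10 at 6 h (−0.48) and 3 and 5 of 10 at 24 h (−0.17), and L363-CFZr had 0 and 7 of 9 with HFG (−0.20) and 0 and 2 of 9 with NCP26 (−0.23) at 6 h. IRF4, a factor on which myeloma cells depend, fell in AMO1 at 6 h from a mean of 317 CPM to 147 with NCP26 (−1.10) and 119 with HFG (−1.37). PRDM1, the plasma cell regulator Blimp-1, fell from 119 CPM to 69.3 (−0.77) and 59.6 (−0.95). POU2AF1, a B-lineage coactivator, fell from 705 CPM to 260 (−1.43) and 192 (−1.84). XBP1, a factor of the secretory programme, moved at 24 h as ITGB7 did, from 318 CPM down to 227 with NCP26 (−0.49) and up to 519 with HFG (0.71) and 707 with CFZ (1.17).

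The 12 plasma cell markers, which include SDC1 and TNFRSF17, had 10 lower and 0 higher with NCP26 and 11 lower and 0 higher with HFG in AMO1 at 6 h (medians −0.69 and −0.84), and 4 and 12 lower of 12 in L363-CFZr at 6 h (−0.33 and −0.54). Of all genes, 37.3% and 54.3% were called in AMO1 and 18.8% and 54.5% in L363-CFZr, in the same order. With CFZ at 6 h 2 were higher and 3 lower (−0.02), and their part in the result for SDC1 was not tested. Other surface antigens of plasma cells and myeloma, 42 genes, had 5 higher and 10 lower of 25 tested with NCP26 (median −0.21) and 6 and 11 of 25 with HFG (−0.35) in AMO1 at 6 h, and 2 and 3 of 21 (0.02) and 6 and 8 of 20 (−0.01) in L363-CFZr.

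Among the ligands, sister receptor, adaptors and other partners of BCMA and TACI, 12 of 15 genes were tested, with 1 higher and 1 lower for NCP26 and 3 and 2 for HFG in AMO1 at 6 h (medians 0.04 and 0.11). TNFSF13 (APRIL), TNFSF13B (BAFF) and TNFRSF13C (BAFF receptor) were too low to be tested, with DMSO means of 0.565, 1.61 and 0.455 CPM in AMO1 at 6 h.

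The list of syndecans, heparan sulfate synthesis and shedding had 1 higher and 3 lower of 20 with NCP26 and 2 and 5 of 20 with HFG in AMO1 at 6 h (medians −0.17 and −0.09), and 4 and 11 of 20 with HFG in L363-CFZr (−0.20). SDC4 was lower with HFG in AMO1 at 6 h (−0.82, from 14.3 to 7.98 CPM). Of the sheddases ADAM10 was called in none of the 10 comparisons with NCP26, HFG or CFZ, and ADAM17 rose with CFZ at 6 h from 47 to 85.9 CPM (0.86).

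Of the SLAM family and its adaptors 2 of 10 genes, CD48 and LY9, were expressed enough to be tested in AMO1. CD48, a SLAM family ligand, fell at 24 h from 342 CPM to 219 with NCP26 (−0.65), 221 with HFG (−0.63) and 152 with CFZ (−1.15). LY9 fell from 39.9 to 13.9 with HFG (−1.52) and 6.61 with CFZ (−2.57), read 42.1 with NCP26 (0.08, not called) and had risen with NCP26 at 6 h (0.51).

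Of the integrin partners and activators 3 were higher and 1 lower of 10 with NCP26 and 6 and 3 of 11 with HFG in AMO1 at 6 h (medians 0.01 and 0.32). ITGA4, which pairs with ITGB7, fell in all 6 AMO1 comparisons with NCP26, HFG and CFZ (−0.30 to −0.69) and rose with HFG at 6 h in L363-CFZr (0.40). ITGAE, the other partner, rose with NCP26 in AMO1 from 7.0 to 12.9 CPM at 6 h (0.87) and from 5.01 to 12.9 at 24 h (1.31). Of the NAD and adenosine ectoenzymes 1 of 4 was lower with NCP26 and 2 of 4 with HFG in AMO1 at 6 h (medians −0.18 and −0.26), and BST1, the relative of CD38, was near 0. None of the 10 relatives of FCRL5 and GPRC5D reached the level needed for a test.

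The genes most like each member were ranked by Pearson's r of log2 CPM over the group means, 12 in AMO1 and 10 in L363-CFZr, as a description of points that share DMSO libraries, times and sets. In AMO1 the 3 closest genes, with r of the first, were GRAMD4 (0.958), LINC02909 and SFMBT2 for SDC1, NDUFB3 (0.962), GAA and YWHAE for TNFRSF17, and SULF2 (0.971), EARS2 and SLC27A5 for TNFRSF13B. For CD38 they were ATP23 (0.913), TADA3 and STN1, for SLAMF7 MTO1 (0.969), UBE2D1 and KLF6, and for FCRL5 EIPR1 (0.970), MEI1 and CERS5. GPRC5D was closest to C12orf76 (0.960), NT5DC1 and AKR7A2, and ITGB7 to SPARC (0.985), CCR1 and ERGIC1. In L363-CFZr they were DDX56 (0.994), MVP and SENP3 for SDC1, GPN1 (0.991), UROD and DPM3 for TNFRSF17, and SLC38A5 (0.991), PRPS1 and ARMC6 for TNFRSF13B. CD38 was closest to NPL (0.973), TBL1X and NUB1 in that line, SLAMF7 to TMX2 (0.986), SLC35B1 and ALG1, GPRC5D to ORAI2 (0.952), SLC25A20 and ABCF2, and ITGB7 to IGSF8 (0.990), TACC3 and CD81. The members differed in which gene was closest, and none of these genes was closest to the same member in both lines. Among members, SDC1 had r = 0.769 with GPRC5D and −0.730 with ITGB7 in AMO1, SLAMF7 had −0.782 with GPRC5D in AMO1, and in L363-CFZr SDC1 had 0.903 with TNFRSF17 and CD38 had −0.886 with ITGB7.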

How the data were processed

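Per the methods of the study, the authors prepared libraries with a directional kit sequenced them as read pairs and quantified them with kallisto against a GRCh38 transcriptome, while the submitters' processing notes name hg19. The kallisto version, the annotation, the strand setting and the step to whole numbers were not named in any source consulted. The deposited values are raw gene counts, and shared sequence between genes can move counts from one gene to another. 

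Genes passed edgeR's filterByExpr (minimum count 10, minimum total count 15) in each comparison, and counts were scaled by TMM. Groups came from the labels, with 3 libraries each. Only the groups compared entered a fit (edgeR 4.0.16 in R 4.3.3, quasi-likelihood test, Benjamini-Hochberg adjustment over all genes tested, threshold 0.05, two-sided), and CPM used TMM-adjusted library sizes. Log2 CPM for likeness used a prior count of 2. The procedure was tested on simulated data. Lengths, positions and shared 31-base words came from GENCODE 44, and 95.7% of the 20167 identifiers matched. Promoters came from RefSeq tables of GRCh38.p14.

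The members and lists were chosen with earlier results of these data known, so no list serves as independent support. Named genes were all 8 members, 17 fixed relatives and the 2 called genes with the largest change per list at a mean of at least 5 CPM, from which the text gives the main ones (1 of the relatives is not reported here). The lists were other surface antigens, BCMA and TACI partners, syndecans and heparan sulfate, SLAM family, integrin partners, ectoenzymes, FCRL and GPRC5 relatives, transcription factors and markers of plasma, B, T and NK, myeloid, erythroid, and stromal and epithelial cells. ZNF740 was added after the values were seen. Replicate pairs correlated at 0.939 to 0.992 over genes of at least 1 mean CPM, and none was identical. The mean correlations given for the 2 libraries that stood apart were taken over all genes. Alternatives were DESeq2 size factors, the DESeq2 1.42.0 Wald test, no filter, all groups of the line (both lines for line comparisons) in 1 fit, a GC content offset, the replicate number as a block, a term for the sample-number set, leaving out each library, and union exon length. The set term can be estimated only from AMO1 CFZ 24 h and L363-CFZr NCP22 6 h, the groups that span sets. Relative to plain library size, TMM moved all log2 changes by −0.21 (HFG) to 0.21 (CFZ) at 6 h in AMO1, and no called member changed sign at plain size.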

Additional observations from a re-analysis of the deposited data

Results flagged for a closer look

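Effects that differed between lines or times in the interaction tests of edgeR (adjusted p under 0.05) are gathered here, as the effect in L363-CFZr minus that in AMO1, or at 24 h minus that at 6 h. The NCP26 effect by line was −1.05 for SLAMF7 at 6 h, and −2.06 for SLAMF7 and 1.32 for GPRC5D at 24 h. The HFG effect by line at 6 h was 0.46 for SDC1, −0.49 for TNFRSF13B, 0.52 for CD38, −1.48 for SLAMF7, 0.81 for GPRC5D and −0.43 for ITGB7. At 24 h it was 1.37 for SDC1, −1.55 for SLAMF7, 1.43 for GPRC5D and −1.14 for ITGB7, the last from a rise in AMO1 against a value below DMSO in L363-CFZr that was not called with all libraries. For GPRC5D at 24 h both values lost their call with a term for the sample-number set, at 1.13 for NCP26 (adjusted p = 0.196) and 1.23 for HFG (adjusted p = 0.0934). For HFG at 6 h that term also took the call from SDC1, TNFRSF13B, CD38 and GPRC5D (adjusted p from 0.21 to 0.475). With DESeq2 CD38 and GPRC5D were not called for HFG at 6 h (adjusted p = 0.0841 and 0.0758), and each lost its call without any 1 of several libraries, at 0.44 without L363-CFZr DMSO replicate 3 for CD38 (adjusted p = 0.0841) and at 0.69 without AMO1 HFG replicate 3 for GPRC5D (adjusted p = 0.127).

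By time in AMO1, the NCP26 effect was 0.64 for SDC1, 0.63 for TNFRSF17, −0.85 for TNFRSF13B and 0.83 for SLAMF7. The HFG effect by time in AMO1 was 0.61 for TNFRSF17, 0.30 for SLAMF7, −1.12 for FCRL5 and 0.85 for ITGB7, and that of CFZ was −1.62 for FCRL5, −1.19 for GPRC5D and 0.86 for ITGB7. Of these, SLAMF7 with HFG and GPRC5D with CFZ were not called with the set term (adjusted p = 0.0816 and 0.0507), nor FCRL5 with HFG without HFG 24 h replicate 3 (adjusted p = 0.0631) and GPRC5D with CFZ without CFZ 6 h replicate 3 (adjusted p = 0.0683). In L363-CFZr the HFG effect by time was 0.89 for SDC1. The NCP26 effects at 6 h compare libraries of 1 sample-number set within each line. In every other difference given here at least 1 of the effects compared crosses sets. There set and treatment cannot be told apart in the comparison with DMSO.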

How the results depend on the processing

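Member counts called under other settings are given against the reported count. Shares of all genes called under most of these settings are not given here, so a moved count cannot be read as particular to the members. The share for L363-CFZr NCP26 at 24 h, for example, went from 7.09% to 28.6% without DMSO replicate 2. With the DESeq2 Wald test AMO1 NCP22 at 6 h had 2 (reported 1), halofuginol at 6 h 2 (0), NCP26 against HFG at 6 h 2 (0), and in L363-CFZr the time difference of NCP26 2 (0) and of HFG 2 (1). Without a filter AMO1 halofuginol at 6 h had 2, NCP26 against HFG at 6 h 2 and the L363-CFZr HFG time difference 2. With all groups in 1 fit L363-CFZr NCP26 at 24 h had 4 (2) and HFG 2 (0), AMO1 NCP26 against HFG at 6 h 3, the NCP26 effect by line 2 at 6 h (1) and 4 at 24 h (2), the AMO1 CFZ time difference 5 (3), and the L363-CFZr time differences of NCP26 and HFG 3 each. With the GC offset AMO1 HFG at 6 h had 7 (4), NCP22 at 6 h 0, L363-CFZr NCP26 at 24 h 1, the NCP26 effect by line at 6 h 2 and the L363-CFZr HFG time difference 2, and ITGB7 with HFG at 6 h in AMO1 turned from −0.07 to 0.15 (0.15 also with the block). With a term for the sample-number set AMO1 NCP26 at 24 h had 3 (5), losing SDC1 and GPRC5D, HFG at 24 h lost GPRC5D, and L363-CFZr HFG at 6 h 2 (5), losing TNFRSF17, TNFRSF13B and CD38. In that fit L363-CFZr NCP26 at 24 h had 4, HFG at 24 h 2, AMO1 NCP26 against HFG at 6 h 3, the effects by line at 6 h 2 for NCP26 and 2 for HFG (6), and the L363-CFZr NCP26 time difference 2. The DESeq2 size factors moved no count by over 1.5 times. By union exon length the order in AMO1 at 6 h put TNFRSF17 at 2, ITGB7 at 3, SLAMF7 at 4 and TNFRSF13B at 5, at 24 h TNFRSF17 at 2 and ITGB7 at 3, and in L363-CFZr at 6 h TNFRSF17 at 1, SDC1 at 2 and ITGB7 at 3. The cause of these changes was not tested. Low counts limit GPRC5D and FCRL5.

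With a replicate block AMO1 NCP22 at 6 h had 2, halofuginol at 6 h 1, L363-CFZr NCP26 at 6 h 2 (4) and at 24 h 0 (2). With the block and the GC offset AMO1 HFG at 6 h had 7, L363-CFZr NCP26 at 6 h 1 and at 24 h 0, and the L363-CFZr time comparison of DMSO 2 (5). The replicate numbers do not pair the libraries, since correlations of same-numbered deviations ran from −0.313 to 0.258 and in 0 of 34 comparisons were all above 0.1.

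Leaving out 1 library in turn, L363-CFZr DMSO over time ranged from 0 (without any 6 h library) to 5, L363-CFZr NCP26 at 24 h from 0 (without any library other than DMSO replicate 2) to 3, HFG at 24 h 0 to 3 (3 without DMSO replicate 2), NCP26 at 6 h 2 (without DMSO replicate 1 or 3 or NCP26 replicate 1) to 5, and halofuginol at 6 h 0 to 1 (without DMSO replicate 2 or 3). In AMO1 at 6 h NCP22 ranged from 1 to 2 and halofuginol from 0 to 2 (both 2 without DMSO replicate 3), and NCP26 against HFG 0 to 2 (without NCP26 replicate 1) and at 24 h 3 (without HFG replicate 2) to 6. L363-CFZr NCP26 against NCP22 at 6 h ranged from 2 (without NCP22 replicate 3) to 6, NCP26 against HFG at 24 h from 1 (without HFG replicate 2) to 5, with 3 without NCP26 replicate 2 and 2 without HFG replicate 3. The NCP26 effect by line at 24 h ranged from 2 to 4 (without L363-CFZr DMSO replicate 2), the AMO1 CFZ time difference from 2 to 5 (without CFZ 24 h replicate 2), and the L363-CFZr HFG time difference from 1 to 3 (without DMSO 24 h replicate 2), with 2 without HFG 6 h replicate 2 or DMSO 24 h replicate 1.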
